A study of Mus musculus with 7 samples.

Results

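The genes described here are 7 chemokine receptors of mouse bone-marrow-derived macrophages (BMDMs): Ccr1, Ccr2, Ccr3, Ccr7, Ccrl2, Cxcr4 and Cx3cr1. They were taken by name, and all 7 were found among the 48440 genes of the LPS experiment and among the 55352 genes of the AAV experiment. BMDMs are grown from marrow cells in M-CSF, the growth factor of macrophages, and every sample came from wild-type (WT) mice, in the study's methods C57BL/6 and young adults of both sexes. In the LPS experiment, BMDMs were left without treatment (0 h) or given 100 ng/mL of LPS, the endotoxin of Gram-negative bacteria, over 2 h or 4 h; each time is 1 library. In the AAV experiment, BMDMs were infected for 48 h with an adeno-associated virus that carried green fluorescent protein (AAV-GFP) or Shisa3 (AAV-Shisa3), with 2 samples per group. The study's methods give the ubiquitous CAG promoter as the driver of both transgenes, so neither was limited to macrophages, and the labels do not say whether samples of a group came from separate cultures. The p-values then measure only the spread between these samples, which may be technical.

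Chemokine receptors are G protein-coupled receptors that turn a gradient of small secreted chemokines into directed movement of leukocytes. Ccr1, Ccr2 and Ccr3 bind inflammatory CC chemokines, of which Ccr2 draws monocytes out of the marrow toward Ccl2 and Ccr3 is best known from eosinophils. Cxcr4 holds cells in the marrow through Cxcl12, Cx3cr1 binds the membrane-anchored chemokine Cx3cl1 and is carried by monocytes and tissue macrophages, and Ccr7 guides mature dendritic cells and lymphocytes to lymph nodes along Ccl19 and Ccl21. Ccrl2 is the atypical member, which binds the chemoattractant chemerin without the usual G protein signal.

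Of the 7 genes, 5 lie on chromosome 9 of GRCm38 in GENCODE M21, to which they were matched by Ensembl identifier. The identifier versions printed are those of the deposited LPS values, and some differ in GENCODE M21. Ccr1 (ENSMUSG00000025804.4, 123962124 to 123968692, minus strand), Ccr3 (ENSMUSG00000035448.8, 124021972 to 124031689, plus strand) and Ccr2 (ENSMUSG00000049103.13, 124101950 to 124113557, plus strand) are neighbours. Ccrl2 (ENSMUSG00000043953.12) spans 111054486 to 111057519 and Cx3cr1 (ENSMUSG00000052336.6) spans 119901616 to 120069879, both on the minus strand. Cxcr4 (ENSMUSG00000045382.6) lies on chromosome 1 from 128588199 to 128592293 and Ccr7 (ENSMUSG00000037944.8) on chromosome 11 from 99144196 to 99155077, both on the minus strand. Values are given per gene, not per transcript.

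The 250 bases before each RefSeq transcript start of these genes were searched on both strands for 4 motifs that bind factors active in macrophages. These were the kappaB motif of NF-kappaB, the AP-1 motif TGANTCA, the NRF1 core CGCATGCG and the core of the interferon-stimulated response element, GAAANNGAAA. RefSeq windows on GRCm38.p6 were matched by symbol for 6 of the 7 genes, 8 windows in all. The RefSeq starts of Ccr2 and Cx3cr1 lie inside the GENCODE spans given above, so the Ccr2 window (chr9:124101933-124102182) and the Cx3cr1 window (chr9:120068297-120068546) fall mostly or wholly within those spans. The 2 Ccrl2 windows that are not printed (chr9:111057271-111057520 and chr9:111057245-111057494) likewise fall mostly or wholly within the Ccrl2 span. The 4 windows with a match are printed because 3 of them belong to genes that were higher after LPS and 1 to the gene furthest below its untreated level. The Ccrl2 window is chr9:111057519-111057768 and the Ccr1 window is chr9:123968693-123968942, both read from the minus strand. The Ccr3 window is chr9:124021721-124021970 on the plus strand, and the Cxcr4 window is chr1:128592300-128592549 on the minus strand. Each is printed 5′ to 3′ with the matched motif in capitals.
Ccrl2: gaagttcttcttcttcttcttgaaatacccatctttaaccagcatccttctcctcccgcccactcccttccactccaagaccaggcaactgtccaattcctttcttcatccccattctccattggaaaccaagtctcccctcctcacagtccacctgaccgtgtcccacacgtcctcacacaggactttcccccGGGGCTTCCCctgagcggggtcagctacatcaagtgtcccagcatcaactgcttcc
Ccr1: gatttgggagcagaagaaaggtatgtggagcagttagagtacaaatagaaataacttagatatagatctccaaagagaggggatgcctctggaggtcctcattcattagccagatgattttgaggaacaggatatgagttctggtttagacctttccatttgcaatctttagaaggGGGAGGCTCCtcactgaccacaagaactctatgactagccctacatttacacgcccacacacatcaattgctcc
Ccr3: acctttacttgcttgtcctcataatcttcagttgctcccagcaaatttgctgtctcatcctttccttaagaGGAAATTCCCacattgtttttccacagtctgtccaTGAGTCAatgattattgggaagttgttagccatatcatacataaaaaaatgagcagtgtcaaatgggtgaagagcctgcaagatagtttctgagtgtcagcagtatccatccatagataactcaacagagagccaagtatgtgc
Cxcr4: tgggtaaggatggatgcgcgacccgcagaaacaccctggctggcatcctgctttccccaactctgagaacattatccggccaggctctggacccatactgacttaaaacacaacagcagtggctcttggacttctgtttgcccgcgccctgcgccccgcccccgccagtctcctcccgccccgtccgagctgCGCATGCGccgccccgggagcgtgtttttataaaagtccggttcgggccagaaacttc
The capitals mark a kappaB motif 56 to 47 bases before the RefSeq start in Ccrl2, 74 to 65 bases before it in Ccr1 and 179 to 170 bases before it in Ccr3. A kappaB motif was present in 7.25% of all 32817 windows of this length. In Ccr3 the second run of capitals is an AP-1 motif at 144 to 138 bases, a motif in 6.75% of all windows. In Cxcr4 the capitals are the NRF1 core at 58 to 51 bases, which 1.54% of all windows held. The Ccr2 and Cx3cr1 windows and the other 2 Ccrl2 windows held none of the 4 motifs, and the interferon core, in 2.97% of all windows, was in no window of these genes. A match is a match of letters and was not tested for binding.

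The untreated library held 15588502 reads, the 2 h library 7263258 and the 4 h library 32659392, and low genes were measured least exactly at 2 h. All 10 macrophage markers, among them Adgre1 (F4/80), Csf1r and Cd68, passed the filter in both experiments. Adgre1 was at 2538 to 2920 TPM (transcripts per 1000000) in the 4 AAV samples. Cd3e, Cd3g and Ncr1, markers of T and NK cells, were at 0 in all 7 samples. The other lymphoid, mast cell and fibroblast markers were low: in the AAV samples the T, B and NK list summed to 8.17 to 13.8 TPM, the mast cell and basophil list to 0.37 to 1.93 TPM, the fibroblast list to 10.1 to 17.2 TPM and the dendritic list to 7.12 to 15.7 TPM, beside 36665 to 40344 TPM for macrophage markers. Of that last sum Lyz2 alone gave 26378 to 29528 TPM, and Ccr2 itself was at 3.64 to 8.54 TPM in these samples. At 0, 2 and 4 h of LPS the fibroblast list summed to 467, 908 and 1042 reads over the library factor. The neutrophil list summed to 6959, 11567 and 9095. In bulk RNA, fewer cells of a type and less RNA per cell cannot be told apart. Levels in the LPS experiment are reads divided by a library factor of the authors, called scaled reads below, and folds between times carry exact 95% intervals that cover counting error only.

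All 7 receptor genes differed from 0 h by 2-fold or more at both times after LPS, with Ccr1, Ccr3, Ccr7 and Ccrl2 higher and Ccr2, Cxcr4 and Cx3cr1 lower. Such a fold was common: of the 17854 genes whose mean reached 1 scaled read, 20.5% were higher by this much at 2 h and 24.7% lower, and 22.2% and 23.6% at 4 h. The 4 and 3 genes are therefore a description of these receptors, and with 1 library per time there is no test. The median log2 difference of the 7 genes from 0 h was 1.22 at 2 h and 1.44 at 4 h, against -0.05 and -0.04 over all genes. A median hides the split between them, since single genes ran from -6.70 to 6.21 at 4 h.

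**Figure D1:**
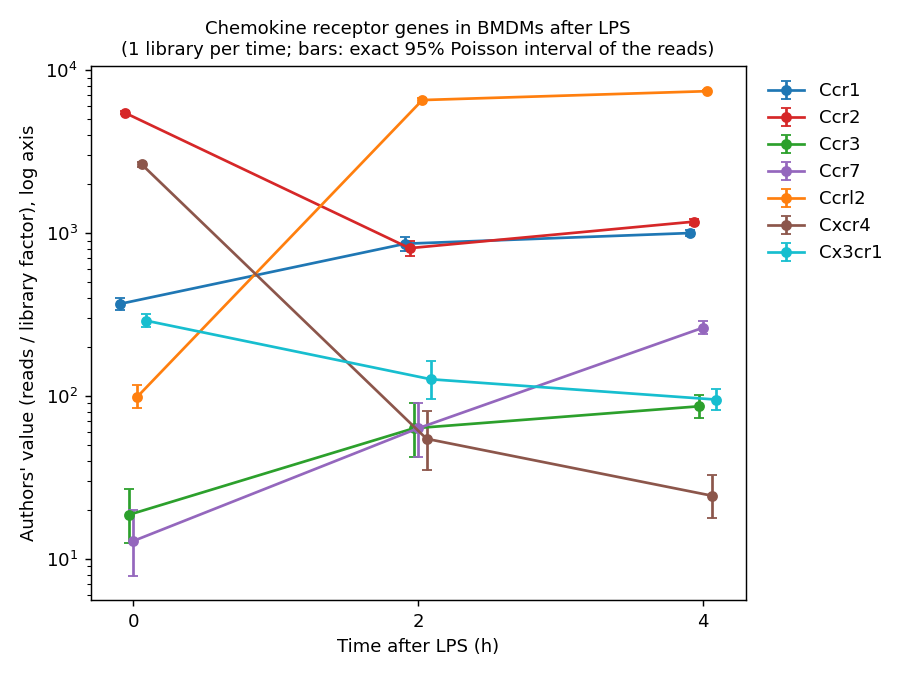
Level of each receptor gene at 0, 2 and 4 h of LPS in scaled reads on a log axis, with 1 library per time and bars for the exact 95% Poisson interval of the reads. Ccrl2 climbs from 99.1 to 7432, while Cxcr4 goes down from 2641 to 24.5 and Ccr2 from 5486 to 1176.

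Ccrl2 stood furthest above its untreated level of the 7. Its scaled reads were 99.1 at 0 h, 6555 at 2 h and 7432 at 4 h, resting on 154, 3002 and 13676 reads. The level was 66.2-fold higher at 2 h (interval 56.3 to 78.3) and 75.0-fold higher at 4 h (64.0 to 88.5). Among the 17854 genes its log2 difference ranked 74 from the top at 2 h and 104 at 4 h. Most of the difference was in place by 2 h, as the level at 4 h was 1.13-fold that at 2 h (1.09 to 1.18).

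Ccr7, the lymph node homing receptor, reached its high later. It had 20 reads at 0 h, 29 at 2 h and 483 at 4 h, or 12.9, 63.3 and 262 scaled reads. That is 4.92-fold higher at 2 h (2.69 to 9.18) and 20.4-fold higher at 4 h (13.1 to 33.7). At 4 h it stood 4.14-fold above 2 h (2.85 to 6.26), and it was the only member at least 2-fold higher at 4 h than at 2 h, as 17.9% of all genes were. Markers of dendritic cells, the type best known for Ccr7, also summed higher, from 154 scaled reads at 0 h to 1059 and 1916, mostly from Fscn1 and Ccl22. Of the 10 markers 6 were at least 2-fold higher and 2 lower at 4 h, beside 22.2% and 23.6% of all genes, and Xcr1 and Itgae among the 6 rest on 8 and 3 reads at 4 h. Btla was 21.2-fold higher (11.3 to 44.8) and Dpp4 2.39-fold higher (1.60 to 3.64). Flt3 and Zbtb46 define dendritic cell lineages. Zbtb46 was 3.17-fold higher at 2 h (1.42 to 7.04) and at 0.732-fold its untreated level at 4 h (0.321 to 1.65). Flt3, counted among the 2 lower, was at 2.20-fold its untreated level at 2 h (0.930 to 4.97) and at 0.447-fold at 4 h (0.176 to 1.06), both within counting error. The part of such cells in the Ccr7 values was not tested.

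Ccr1, a receptor for Ccl3 and Ccl5, was modestly higher, going from 368 scaled reads at 0 h to 860 at 2 h and 1000.4 at 4 h, or 572, 394 and 1841 reads. The level was 2.34-fold higher at 2 h (2.05 to 2.66) and 2.72-fold higher at 4 h (2.47 to 2.99). With reads scaled to library totals its log2 difference was 0.56 at 2 h and 0.62 at 4 h, short of 2-fold. Ccr3 went from 18.7 to 63.3 and 86.4 scaled reads. These rest on 29, 29 and 159 reads, so its 3.39-fold and 4.63-fold differences have wide intervals (1.96 to 5.89 and 3.10 to 7.14). Ccr3 is the eotaxin receptor of eosinophils, and the summed eosinophil markers were at 85.6, 181 and 145 scaled reads, most of them from Prg2. Siglecf was 3.29-fold higher at 4 h (1.62 to 7.40) from 10 and 39 reads, and Il5ra was at 0 at 0 h and 2 h. Their part in the Ccr3 values was not tested.

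Cxcr4, the receptor for Cxcl12, stood furthest below its untreated level. Its reads numbered 4106, 25 and 45 at the 3 times, or 2641, 54.6 and 24.5 scaled reads. The level was 48.4-fold lower at 2 h (32.7 to 74.9) and 108-fold lower at 4 h (80.6 to 148). It ranked 23 from the bottom at 2 h and 4 from the bottom at 4 h among 17854 genes. It was also the only member at least 2-fold lower at 4 h than at 2 h, by 2.23-fold (1.31 to 3.72), which 15.2% of all genes were.

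Ccr2, the monocyte receptor for Ccl2, had 5486 scaled reads at 0 h, 808 at 2 h and 1176 at 4 h, from 8529, 370 and 2164 reads. The level was 6.79-fold lower at 2 h (6.12 to 7.56) and 4.67-fold lower at 4 h (4.45 to 4.89). The 2 h library was the lowest, with the 4 h level 1.46-fold above it (1.30 to 1.63). Cx3cr1, the fractalkine receptor, went from 290 to 127 and 95.1 scaled reads, from 451, 58 and 175 reads. It was 2.29-fold lower at 2 h (1.74 to 3.07) and 3.05-fold lower at 4 h (2.56 to 3.65). The 2 later times did not differ beyond counting error for Cx3cr1, at 1.33-fold lower (0.972 to 1.80). With each library centred on its median the Cx3cr1 log2 difference at 2 h was -0.88, short of 2-fold. The summed monocyte markers were higher after LPS, at 6256, 15353 and 34674 scaled reads. At 4 h Vcan (309 to 15187 scaled reads), Ms4a4c (363 to 8495) and Hp (84.9 to 4460) carried that sum, while F13a1, the largest at 0 h with 4110, was at 3203. The part of such cells in the Ccr2 and Cx3cr1 values after LPS was not tested.

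All 7 directions were the same under the 4 scalings tried, although the median of all genes moved between -0.68 and 0.26 at 2 h and between -0.80 and 0.33 at 4 h. Relative to that median, Ccrl2 was at 6.19 to 6.26 on the log2 scale at 4 h and Cxcr4 at -6.68 to -6.65. Ccr1 was at 1.42 to 1.48 and Cx3cr1 at -1.61 to -1.55. Without that reference the log2 differences at 4 h ran from -3.04 to -1.85 for Ccr2 over the 4 scalings. They ran from 5.39 to 6.59 for Ccrl2 and from -7.48 to -6.33 for Cxcr4. The folds given above are on the authors' scale, and their intervals leave out this choice.

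Levels of different genes were compared per exon length, as recovered reads rescaled to TPM with GENCODE M21 lengths. On this scale Cxcr4 led at 0 h with 324, followed by Ccr2 with 180, Ccr1 with 28.8, Cx3cr1 with 14.3 and Ccrl2 with 8.46. Ccr7 at 1.44 and Ccr3 at 1.26 had overlapping intervals. By 4 h the order had turned over: Ccrl2 led with 376, before Ccr1 with 46.4, Ccr2 with 22.9 and Ccr7 with 17.4. Ccr3 at 3.47 and Cx3cr1 at 2.77 overlapped, as did Cx3cr1 and Cxcr4 at 1.78. At 2 h Ccrl2 led as well, with 304, and Ccr7, Cxcr4, Cx3cr1 and Ccr3 lay between 2.33 and 3.86 with each overlapping the next.

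In the AAV experiment the transduced gene was measured first. Shisa3 had 7.88 and 10.85 TPM in AAV-GFP and 12.31 and 17.81 TPM in AAV-Shisa3 BMDMs. Both AAV-Shisa3 values lay above both AAV-GFP values, but the log2 difference of 0.63 (SE 0.22) did not pass, with an adjusted p of 0.138 from limma.

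Ccr1, Ccr2 and Ccrl2 were higher in AAV-Shisa3 than in AAV-GFP BMDMs at an adjusted p under 0.05 from limma, 3 of the 6 receptor genes that reached a mean of 1 TPM in each group, and 0 of the 6 were lower. Over the 11218 genes tested 2.23% were higher and 4.1% lower, with a median log2 fold change of -0.10. These genes were kept on a mean of 1 TPM over all samples, so they include genes kept through 1 group only. Cx3cr1 also had an adjusted p under 0.05, but it reached the mean of 1 TPM only through the group where it was high. Its values are therefore given as a description, and it is not counted among the calls. Cxcr4 was lower at an unadjusted p under 0.05 from limma only, as were 2216 of the 11218 genes. It lost this with samples centred on their median (unadjusted p = 0.0555, limma). With a sample left out its log2 fold change was -0.58 to -0.42. Fold changes are on the scale of log2(TPM + 1), which understates those of low genes such as Cx3cr1. Both AAV-Shisa3 values lay above both AAV-GFP values in 3 of the 6 and below in 1, an order found in 18.2% and 41.2% of all genes. Exact permutation of 2 against 2 samples cannot give a two-sided p below 0.333, so each call rests on the spread that limma shares between genes.

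**Figure D2:**
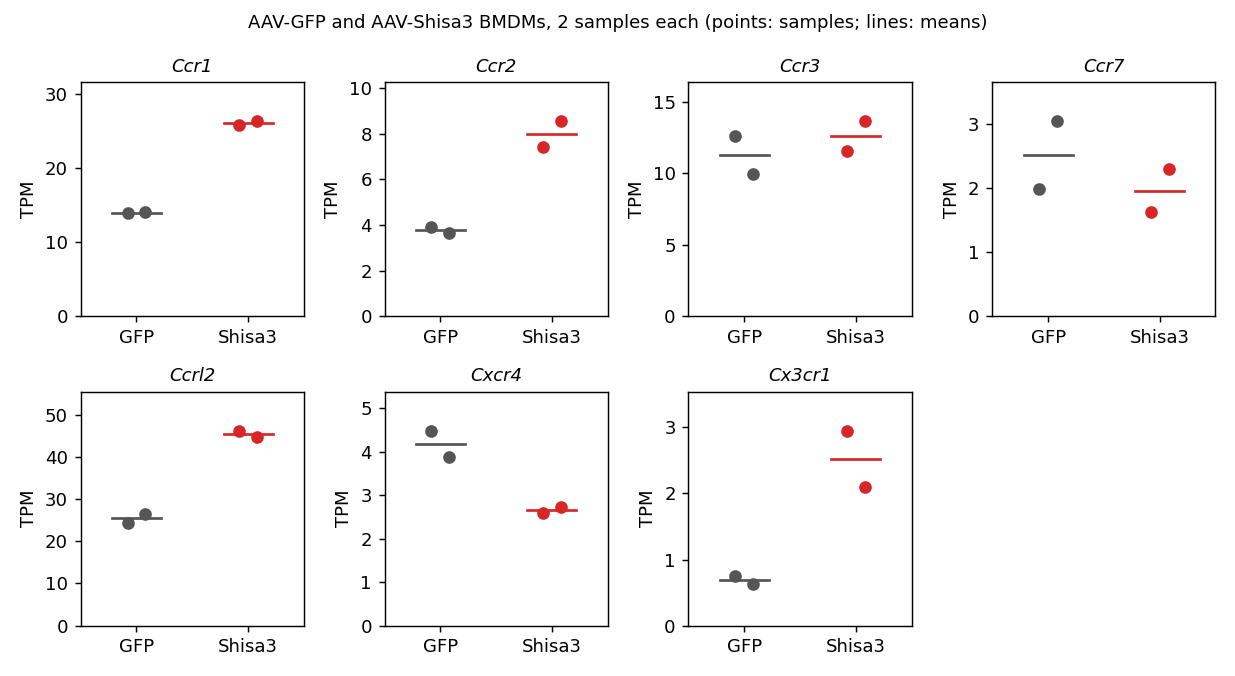
TPM of each receptor gene in the 2 AAV-GFP and 2 AAV-Shisa3 samples, with points for samples and lines for group means, each panel on its own axis from 0. Ccr1, Ccr2, Ccrl2 and Cx3cr1 separate upward in AAV-Shisa3, Cxcr4 separates downward, and Ccr3 and Ccr7 overlap.

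Ccr1 was at 13.97 and 14.04 TPM in AAV-GFP and at 25.86 and 26.34 TPM in AAV-Shisa3. The groups were far apart beside a spread of under 1 TPM within each, and the log2 fold change was 0.85 (SE 0.094, adjusted p = 0.0179, limma). Ccrl2 gave 24.29 and 26.54 TPM in AAV-GFP and 46.18 and 44.65 TPM in AAV-Shisa3. It was the most abundant of the 7 in both groups, and its log2 fold change was 0.81 (SE 0.092, adjusted p = 0.0182, limma).

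Ccr2 was at 3.90 and 3.64 TPM in AAV-GFP and at 7.40 and 8.54 TPM in AAV-Shisa3. Neither group overlapped the other, with a log2 fold change of 0.91 (SE 0.14, adjusted p = 0.0295, limma). Cx3cr1 was the lowest of the 7 in AAV-GFP, with 0.75 and 0.63 TPM, and had 2.95 and 2.10 TPM in AAV-Shisa3. The groups did not overlap, and the fitted log2 difference was 1.05 (SE 0.21, adjusted p = 0.0484, limma), a test the gene entered only through its AAV-Shisa3 values. In GENCODE M21 the Cx3cr1 gene shares 78 exonic bases with the antisense gene Gm33858, and the strand used in counting is not given in the sources used here.

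Cxcr4 was at 4.48 and 3.88 TPM in AAV-GFP and at 2.60 and 2.72 TPM in AAV-Shisa3. Both AAV-Shisa3 values were the lower ones, yet the log2 fold change of -0.50 (SE 0.16) missed the threshold with an adjusted p of 0.114 from limma, and its 95% interval ran from -0.89 to -0.11. Ccr3 was at 12.57 and 9.95 TPM against 11.56 and 13.63 TPM, and the groups overlapped. Its log2 fold change was 0.15 (interval -0.22 to 0.53, adjusted p = 0.547, limma). The eosinophil markers summed to 3.35 and 3.99 TPM in AAV-GFP and to 5.15 and 5.70 TPM in AAV-Shisa3, with Il5ra at 0 in all 4 samples. Ccr7 also overlapped, at 1.98 and 3.04 TPM in AAV-GFP against 1.62 and 2.30 TPM in AAV-Shisa3. A change of -0.24 (interval -0.81 to 0.33, adjusted p = 0.534, limma) leaves room for a difference in either direction.

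The 3 calls depended on how the spread was estimated and on which genes were tested. Without the trend of spread on level, each had an adjusted p of 0.056 from limma, and 0 of 7 genes passed. With no filter on low values 0 of 7 passed as well, at adjusted p-values of 0.105 for Ccr1 and Ccrl2 and 0.136 for Ccr2 from limma. Among all genes tested, 1 was higher and 4 lower without the trend, and 0 and 0 with no filter (1118 and 2411 at an unadjusted p under 0.05, limma). At most 1 of the higher calls on ligands given further on therefore passed the first setting, and 0 the second. Leaving out any 1 of the 4 samples also left 0 of 7 past the adjusted threshold, with log2 fold changes of 0.84 to 0.87 for Ccr1, 0.75 to 0.88 for Ccrl2 and 0.82 to 1.00 for Ccr2, each at an unadjusted p under 0.05 in 4 of 4 fits. The split of all genes turned with scaling, from 250 higher and 460 lower as deposited to 410 higher and 230 lower with each sample centred on its median, where Ccr1, Ccr2 and Ccrl2 passed as well.

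Markers of other myeloid cells differed between the groups as well. The summed neutrophil markers were 609 and 584 TPM in AAV-GFP and 1118 and 704 TPM in AAV-Shisa3, and of 10 tested 9 were above without overlap, beside 18.2% of all genes, and 2, Camp and Ngp, passed, beside 2.23% of all genes. Of the 9, Retnlg reached the mean of 1 TPM only through the AAV-Shisa3 samples. Ly6g, which defines neutrophils, was at 0.10 to 0.29 TPM and their receptor Cxcr2 at 0.14 to 0.24 TPM in the 4 samples. The summed monocyte markers overlapped, at 879 and 855 TPM against 1019 and 763 TPM, with Ms4a4c alone at 574 and 510 TPM against 539 and 359 TPM. Of the 9 markers 6 were above without overlap, beside 18.2% of all genes, and 2, F13a1 and Chil3, were higher past the threshold, beside 2.23% of all genes. The list had a median of 0.47 on the log2 scale, beside -0.10 over all genes. Ly6c2, which marks classical monocytes, was at 38.07 and 42.92 TPM against 69.89 and 49.34 TPM, with a log2 fold change of 0.53 and an adjusted p of 0.121 from limma. The part of such cells in the Ccr2 and Cx3cr1 values was not tested.

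**Figure D3:**
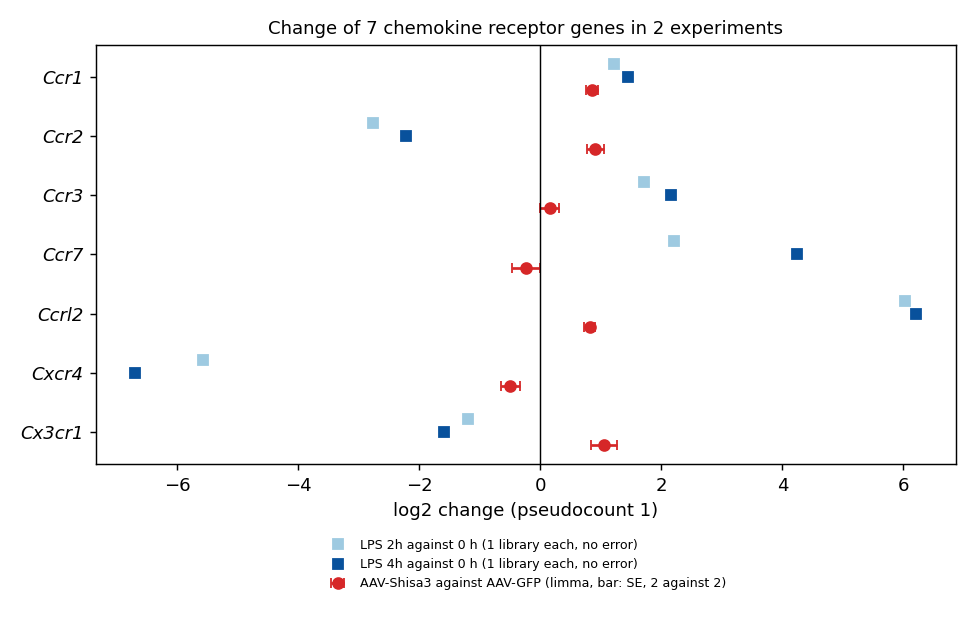
Log2 change of each receptor gene after 2 h and 4 h of LPS (squares, 1 library each, no error) and in AAV-Shisa3 against AAV-GFP BMDMs (circles, bars for SE, 2 against 2 samples), all with a pseudocount of 1. Ccr1 and Ccrl2 lie right of 0 throughout, Cxcr4 lies left of 0, and Ccr2 and Cx3cr1 lie left of 0 after LPS and right of 0 in AAV-Shisa3.

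The experiments share no samples and were normalised separately, so they are set side by side without a test of the difference. Ccr1 stood at 1.44 on the log2 scale after 4 h of LPS and at 0.85 in AAV-Shisa3, and Ccrl2 at 6.21 and 0.81. Ccr2 stood at -2.22 after 4 h of LPS and at 0.91 in AAV-Shisa3, so the signs were opposite. Cx3cr1, at -1.60 and 1.05, is a description only, since it entered the AAV fit through its AAV-Shisa3 values. Ccr7 stood at 4.25 after LPS and at -0.24 in AAV-Shisa3, a value that did not pass.

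Ccr1, Ccr3 and Ccr2 lie close together on chromosome 9, with the starts of Ccr3 and Ccr2 at 53.3 and 133 kb from that of Ccr1, and after LPS their differences did not share a direction. At 4 h Ccr1 was 2.72-fold and Ccr3 4.63-fold higher, whereas Ccr2 was 4.67-fold lower. In AAV-Shisa3 BMDMs Ccr1 and Ccr2 had log2 fold changes of 0.85 and 0.91, and Ccr3, between them, one of 0.15 that did not pass. No pair among the 7 receptor genes and Ccr1l1 shared a window of 50 bases of exon sequence, and the longest run common to Ccr1 and Ccr3 was 47 bases.

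**Figure D4:**
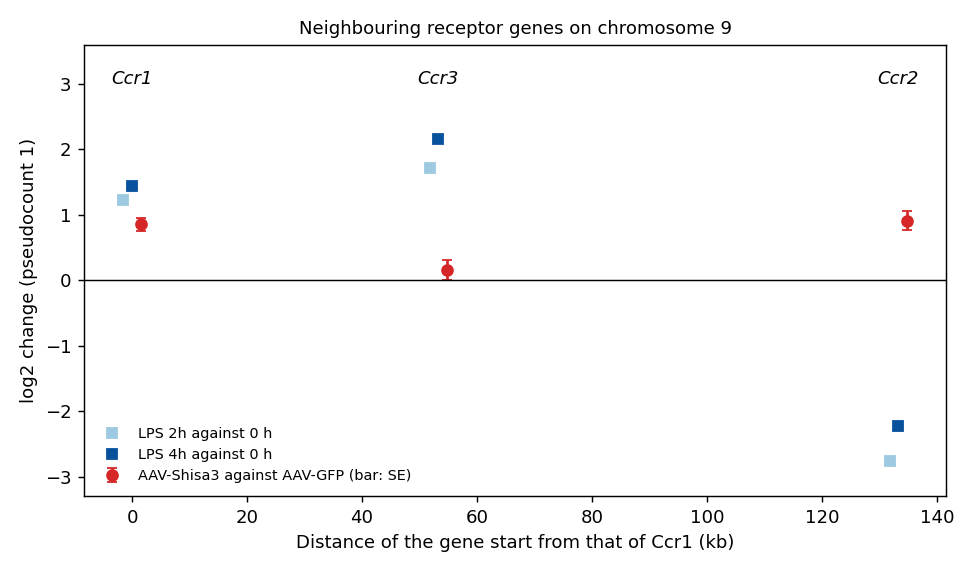
Log2 change of Ccr1, Ccr3 and Ccr2 after 2 h and 4 h of LPS (squares, 1 library each) and in AAV-Shisa3 against AAV-GFP BMDMs (circles, bars for SE), plotted by the distance of each gene's start from that of Ccr1 in kb. After LPS Ccr2 lies at -2.76 and -2.22 while Ccr1 and Ccr3 lie at 1.22 or above.

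Of 18 other chemokine receptors, 9 passed the filter in the LPS experiment, where 3 were at least 2-fold higher and 2 lower at 4 h, with a median log2 difference of 0, beside shares of 22.2% and 23.6% over all genes. Several rested on few reads: Ccr9, a gut homing receptor, had 5 reads at 0 h and 33.7 scaled reads at 4 h, a ratio of 10.5 (4.26 to 33.4), and Xcr1 and Ccr1l1 had 2 and 0 reads at 0 h and 4.35 and 2.72 scaled reads at 4 h. Ccr6 had 2 reads at 0 h and 0 at 4 h, within what a count of 0 allows (up to 3 reads). Cxcr3, a receptor for interferon-induced chemokines, was 6.0-fold lower at 4 h, at 48.9, 37.1 and 8.15 scaled reads. In the AAV experiment 1 of the 18 could be tested. Cmklr1, the signalling chemerin receptor, did not pass, at 43.48 and 53.23 TPM against 51.66 and 76.09 TPM (log2 fold change 0.38, adjusted p = 0.270, limma).

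Of 16 ligands of the 7 receptors, 12 passed the filter in the LPS experiment. Of these, 11 reached 2-fold above untreated at 2 h and 10 at 4 h, beside 20.5% and 22.2% of all genes, and 0 were 2-fold lower. Their median log2 difference was 4.96 at 2 h and 6.05 at 4 h. Ligands of Ccr1 were among them: Ccl5 went from 41.2 to 9027 and 33285 scaled reads, 808-fold at 4 h (633 to 1050). Ccl4 was 285-fold higher at 4 h (246 to 331). Ligands of Ccr2 were higher where Ccr2 was lower: Ccl2 was 55.1-fold higher at 4 h (45.2 to 67.8), Ccl7 was 292-fold higher (194 to 461) and Ccl12 229-fold higher (124 to 478). Ccl8 had 3 reads at 0 h and 549 at 4 h, a ratio of 155 with an interval of 52.6 to 752.

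In AAV-Shisa3 BMDMs 12 of the 16 ligands were tested, of which 5 were higher and 0 lower, beside 2.23% and 4.1% over all genes, with a median log2 fold change of 0.27. Ccl3 was at 1169.23 and 1208.90 TPM in AAV-GFP and at 2192.62 and 2320.34 TPM in AAV-Shisa3, a log2 fold change of 0.92 (SE 0.071, adjusted p = 0.0129, limma). Ccl4 followed at 0.88 (adjusted p = 0.0153), Ccl7 at 0.61 (adjusted p = 0.0349) and Ccl9, a ligand of Ccr1, at 0.49 (adjusted p = 0.0326), all from limma. Ccl2 was at 1907.18 and 1973.68 TPM against 2688.78 and 2325.25 TPM, without overlap, but did not pass (log2 fold change 0.37, adjusted p = 0.0725, limma). Ccl8 was lower without overlap, at 59.33 and 72.81 TPM against 44.55 and 48.32 TPM. It did not pass either (log2 fold change -0.49, adjusted p = 0.0690, limma). Ccl24, an eotaxin that binds Ccr3, was at 0.47 and 1.75 TPM against 4.72 and 7.14 TPM (log2 fold change 1.76, adjusted p = 0.0435, limma). Ccl11, another eotaxin, and Ccl19 and Ccl21a, the ligands of Ccr7, were at 0 in all 7 samples. Cx3cl1, the ligand of Cx3cr1, was at 4.50, 109 and 77.2 scaled reads in the LPS libraries and at 0.27 to 0.99 TPM in the AAV samples, under the filter. Cxcl12, the ligand of Cxcr4, was at 9.65, 21.8 and 12 scaled reads.

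**Figure D5:**
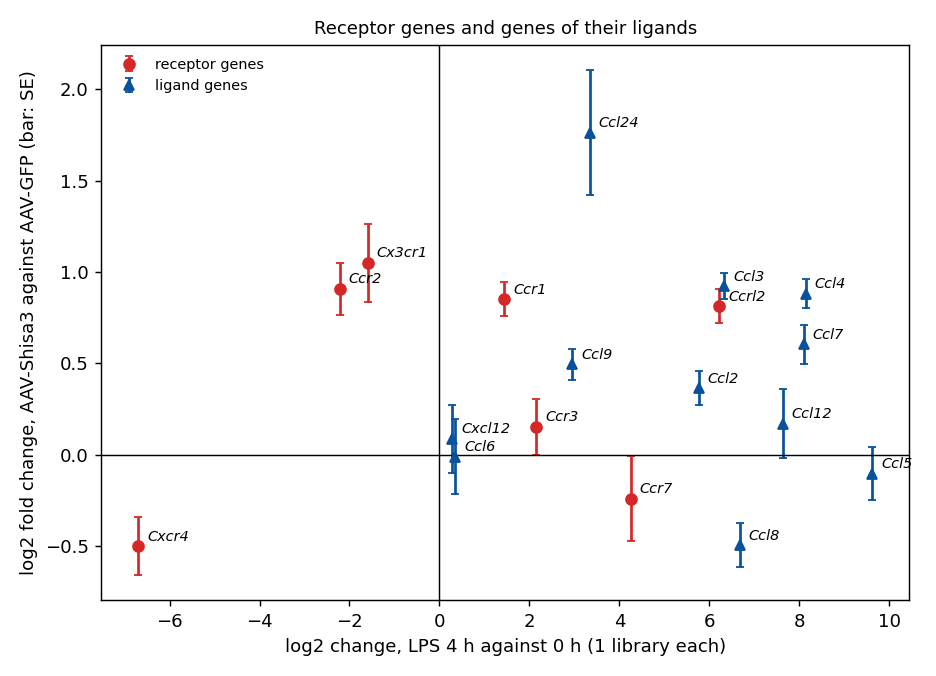
Log2 change after 4 h of LPS (x axis, 1 library each) against the log2 fold change in AAV-Shisa3 against AAV-GFP BMDMs (y axis, bars for SE) for the 7 receptor genes (circles) and the ligand genes tested in both experiments (triangles). The ligand genes all lie right of 0, while Ccr2, Cx3cr1 and Cxcr4 lie left of it.

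Of 28 genes that carry the signal inside the cell, all 28 passed the filter in the LPS experiment, where 9 were at least 2-fold higher and 8 lower at 4 h, with a median log2 difference of 0.05. Over all genes the shares were 22.2% and 23.6%. Arrb1 (beta-arrestin 1, which desensitises receptors) was 20.4-fold lower at 4 h, down from 4044 to 198 scaled reads. Rgs2 and Rgs18, which shorten G protein signals, were 15.6-fold and 4.38-fold lower at 4 h. Pik3r5, the regulatory subunit of the G protein-coupled PI3-kinase, was 10.2-fold higher, and Rgs16 8.73-fold higher from 12 reads at 0 h. In AAV-Shisa3 BMDMs 26 were tested, with 0 higher and 2 lower, beside 4.1% lower over all genes, and a median log2 fold change of -0.11 against -0.10 over all genes. Arrb1 was at 54.60 and 66.37 TPM in AAV-GFP against 28.83 and 37.43 TPM (log2 fold change -0.85, adjusted p = 0.0382, limma). Prex1, an activator of Rac downstream of these receptors, was at 190.76 and 203.79 TPM against 145.77 and 145.01 TPM (log2 fold change -0.44, adjusted p = 0.0327, limma).

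The genes most like each receptor were sought among 6593 genes with means of 10 or more in both experiments, by Euclidean distance over the 7 samples of log2 values centred within each experiment. Ccrl2 lay nearest to Ccl3, at a distance of 0.34, then Gpr84 at 0.36 and Mx1 at 0.39. Ccr1 lay nearest to Clec5a at 0.26, followed by Alas1 and Furin at 0.27. Ccr3 lay nearest to Rabgef1 at 0.24, Cx3cr1 to Ighm at 0.35, Ccr7 to Msr1 at 0.48 and Ccr2 to F630028O10Rik at 0.49. Cxcr4 had the most distant neighbour, Sesn1 at 0.58, with 3403.5, 74.2 and 53.3 scaled reads at 0, 2 and 4 h. Among the receptors themselves Ccr1 and Ccr3 were closest, at 0.91, and Ccrl2 and Cxcr4 furthest apart, at 10.14. All 7 receptors were compared over the same 7 samples.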

How the data were processed

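RNA was sequenced from 3 BMDM libraries of the LPS experiment and 4 samples of the AAV experiment, and groups were taken from the labels. In the LPS table the deposited signal is the number of reads over a library factor: 100% of values were whole multiples of 1 read (tolerance 0.01 reads). The deposited AAV values were read as TPM from their sums of 999778 to 999818 per sample (the unit is not stated, and the depth is unknown). The submitters' processing notes give the build mm9; the aligner, the counter and their settings are not given in the sources used here. The deposited values carry no coordinates, so positions are those of GRCm38, matched by Ensembl identifier (99.2% without version) or symbol (96.5%).

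LPS libraries were compared without a test, as log2(value + 1) for the 17854 genes whose mean reached 1, with Poisson intervals for levels and exact conditional binomial intervals for folds. AAV groups were compared with limma 3.58.1 in R 4.3.3 (trended, on log2(TPM + 1), genes whose mean reached 1 TPM, Benjamini-Hochberg over all genes tested, threshold 0.05). TMM factors came from edgeR 4.0.16, and other values from Python 3.11.15 with scipy 1.17.1. The limma fit and the fold intervals were tested on simulated data. The alternatives were other scalings, pseudocounts, filters, no trend, a replicate block and each sample left out.

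The receptors, the 3 pathway lists, the 8 cell type marker lists and the tests were chosen with earlier results of these data known. From the pathway lists, genes past the AAV threshold were named, and up to 5 per list with the largest LPS change at 4 h; Ccl2, Cmklr1, Cx3cl1, Cxcl12, Ccl11, Ccl19 and Ccl21a, and the markers named, were chosen after their values were seen. The likeness rule named the nearest genes, up to 3 per receptor. Of the receptor list, 1 gene is not reported here.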

Additional observations from a re-analysis of the deposited data

How the results depend on the processing

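Of 98 LPS values of the receptor genes under other settings, 79 stayed within the counting interval of the gene's fold. The other 19, all with centring or library totals, moved outside it, and 0 changed direction. That interval is wide for genes with few reads. Ccr3 at 2 h, at 1.71 and at 1.06 with library totals, therefore counts among the 79. Scaling to library totals changed the counts over all genes to 2427 higher and 7068 lower at 2 h and to 2206 higher and 7597 lower at 4 h. Of 69 AAV values, 25 lost the threshold and 1 reversed: Ccr3 was at -0.0015 without AAV-GFP replicate 2 and at up to 0.31 without another sample. The number of receptor genes higher in AAV-Shisa3, 4 with Cx3cr1 counted, was 0 without the trend, 0 with no filter on low values and 0 in each fit with 1 sample left out; it was 3 with at least 1 TPM in every sample, where Cx3cr1 was not kept, and 3 with a pseudocount of 0.1, where Cx3cr1 had an adjusted p of 0.0502 from limma. Over all genes, 1 was higher and 4 lower without the trend, and 0 and 0 with no filter (1118 and 2411 at an unadjusted p under 0.05, limma). Centring on the sample median gave 410 higher and 230 lower, and leaving out 1 sample gave 0 to 32 higher and 0 to 10 lower; with 3 samples the lone sample is assumed to vary like the others. Why these counts moved was not tested, except that leaving out a sample leaves fewer samples.

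With the replicate number as a block, 424 genes were higher and 851 lower, and the same receptor genes passed, Cx3cr1 included. Same-numbered samples deviated together with a correlation of 0.19 over genes, but there are only 2 pairs and the labels give no shared source, so the samples share only a number. Count tests were not run: the AAV values are not counts, and the LPS libraries have no replicate. Ccr3, Ccr7 and Cxcr4 after LPS rest on 20 to 45 reads at their lowest times, which limits their folds. The AAV depth is unknown, which leaves the error of Cx3cr1 and Ccr7, at or under 3.04 TPM, unmeasured.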

Other observations

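Untreated and AAV-GFP BMDMs, both without LPS, held the 7 receptors in different orders. Per exon length, Cxcr4 (324) and Ccr2 (180) led the untreated library, while AAV-GFP BMDMs had 4.18 TPM of Cxcr4 and 3.77 TPM of Ccr2 on average and were led by Ccrl2 with 25.4 TPM and Ccr1 with 14.0 TPM. Ccr3 was at the bottom of the untreated library with Ccr7, at 1.26 and 1.44 with overlapping intervals, and Ccr3 was the third in AAV-GFP at 11.3 TPM. The experiments differ in virus, in the 48 h of infection and in normalisation, which cannot be told apart here. Markers of other myeloid cells differed too, in both directions. Per exon length the untreated library had 135 of F13a1 (monocytes) and 197 of Mmp8 (neutrophils). AAV-GFP BMDMs had 18.39 and 19.07 TPM of F13a1 and 14.08 and 13.96 TPM of Mmp8. The monocyte markers Ms4a4c and Hp were lower in the untreated library, at 45.9 and 11.7. In AAV-GFP BMDMs Ms4a4c was at 573.66 and 509.93 TPM and Hp at 67.92 and 77.95 TPM. The part of such cells in the receptor orders was not tested.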
